A study of Homo sapiens with 6 samples.

Results

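The replication-dependent histone genes supply the histone proteins that package newly made DNA. They were taken as the protein-coding genes whose GENCODE 29 name starts with HIST1H, HIST2H, HIST3H or HIST4H. GENCODE 29 annotates 71 such genes, of which 58 were among the 29810 gene rows of the deposited expression table, and the other 13 were not analysed here. The 58 members comprised 5 genes for the linker histone H1, 12 for H2A, 15 for H2B, 13 for H3 and 13 for H4.

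The study sequenced mRNA from Kasumi-1, an established human acute myeloid leukemia line that carries the RUNX1-RUNX1T1 fusion gene. Control cultures, which received the solvent DMSO per the methods, were compared with cultures given 0.25 µM I3, an inhibitor of histone deacetylases. Each group held 3 samples, and the labels and methods give 48 h of treatment, although a figure legend of the study gives a longer time and the deposited table carries a different code for the compound. The line, its fusion and the poly(A)-selected, stranded library kit were shared by both groups, and no source used here says whether samples of a group were separate cultures, so each p-value measures only the spread between these samples.

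As background, a nucleosome holds pairs of H2A, H2B, H3 and H4 around which the DNA is wound, and H1 binds the linker between nucleosomes. The replication-dependent genes lie in clusters, mostly lack introns and are expressed in S phase, and most of their mRNAs end in a conserved stem-loop bound by SLBP instead of a poly(A) tail. Some of these genes also make longer, polyadenylated mRNAs, and variant histones such as H3.3 and H2A.Z come from separate genes with ordinary polyadenylated mRNAs. A library made by poly(A) selection therefore samples mainly the tailed RNA of these genes, and the levels given here are levels in that fraction.

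The 3′ stem-loop was read in the GENCODE 29 transcripts, because it is the feature that sets these mRNAs apart. A 3′ untranslated region of at least 30 bases was annotated for 33 of the 58 members, and 29 of these held a match to the histone stem-loop within 300 bases after the stop codon. Over all 18977 protein-coding genes with such a region, 33 or 0.174% held a match, and 2 of the 33 were not annotated replication-dependent histone genes. The sites of 8 members with different reads, types and loops are shown 5′ to 3′, with the 16 bases of the stem-loop in capitals and 5 flanking bases on each side. All lie in annotated 3′ untranslated exon sequence, in GRCh38 coordinates.
HIST1H2AC (chr6:26124664-26124689, plus strand): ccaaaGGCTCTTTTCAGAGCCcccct
HIST1H2BD (chr6:26158582-26158607, plus strand): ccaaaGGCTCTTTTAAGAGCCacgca
HIST1H2BH (chr6:26252050-26252075, plus strand): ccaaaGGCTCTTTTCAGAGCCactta
HIST2H2BE (chr1:149886183-149886208, minus strand): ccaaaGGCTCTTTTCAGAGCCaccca
HIST1H3H (chr6:27810511-27810536, plus strand): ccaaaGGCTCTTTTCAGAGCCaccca
HIST1H4I (chr6:27139649-27139674, plus strand): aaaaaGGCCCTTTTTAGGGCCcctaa
HIST1H4H (chr6:26285126-26285151, minus strand): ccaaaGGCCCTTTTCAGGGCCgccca
HIST4H4 (chr12:14770719-14770744, minus strand): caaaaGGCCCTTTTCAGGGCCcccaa

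The 29 members used 5 stem-loop sequences. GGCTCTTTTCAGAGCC was held by 15 members, namely 5 H2A, 7 H2B and 3 H3 genes, and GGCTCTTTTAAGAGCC by 3 H2B and 2 H3 genes. Of the 8 H4 members with a site, 5 held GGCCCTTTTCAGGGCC and 3 held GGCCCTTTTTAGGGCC, and neither form was found in another type. A single member, HIST1H2AG, held GGCTCTTTTCAGGGCC. In 16 of the 29 members the annotated transcript continued past the stem-loop to an AATAAA hexamer, the letters of the canonical polyadenylation signal, as in HIST1H2AC, HIST1H2BD, HIST1H2BH, HIST2H2BE, HIST1H3H and HIST1H4H. The other 13 had no AATAAA between the stem-loop and the end of the transcript read, and HIST1H4I and HIST4H4 were among them. For each member only 1 transcript was read, the one with the longest 3′ region among those with a stem-loop. Other annotated forms can be longer and were not searched, as in HIST4H4, with 218 bases after the stop codon in the transcript read and 1559 in another. For 25 members the GENCODE 29 model had no base after the stop codon, so their stem-loops could not be read here and reads from a longer mRNA would fall outside the counted model.

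The motifs of the upstream sequences set H4, and H2A together with H2B, apart from the other types. They did not set H1 apart from H3 or H2A apart from H2B. RefSeq promoters (GRCh38.p14), 250 bases before to 50 after each start, were matched for 49 members and searched on both strands for the TATA box letters TATAA, the CCAAT box letters CCAAT and the octamer ATTTGCAT. None of the 3 motifs contains another. TATAA was present in 46 of 49 members (93.9%) against 20.4% of all 35116 promoters, and CCAAT in 40 of 49 (81.6%) against 34.6%. The octamer was found in 8 of 9 H2A and 12 of 15 H2B promoters, in none of the 5 H1, 9 H3 or 11 H4 promoters, and in 1.77% of all promoters. CCAAT was found in 2 of 11 H4 promoters and in all 38 of the other matched members. Some H2A and H2B promoters overlap on opposite strands, as for HIST1H2AC with HIST1H2BC and HIST2H2AC with HIST2H2BE. A motif in the overlap counts for both genes, so the H2A and H2B counts are not from separate sequences. The 250 bases before the RefSeq start are shown for the member with most reads and for the best covered H3 and H4 members. All matches are in capitals, those on the other strand included. For HIST1H4I these bases lie inside the gene model used for counting (chr6:27138588-27139881), which begins upstream of the RefSeq start. A match describes the letters and is no evidence of binding.
HIST1H2BK (H2BC12 in RefSeq, chr6:27146859-27147108, minus strand): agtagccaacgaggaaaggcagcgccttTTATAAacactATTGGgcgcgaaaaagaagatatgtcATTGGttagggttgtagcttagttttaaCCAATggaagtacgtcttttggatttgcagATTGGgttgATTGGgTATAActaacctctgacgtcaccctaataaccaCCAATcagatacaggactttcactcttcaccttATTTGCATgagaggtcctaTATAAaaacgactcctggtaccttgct
HIST1H3H (H3C10 in RefSeq, chr6:27809801-27810050, plus strand): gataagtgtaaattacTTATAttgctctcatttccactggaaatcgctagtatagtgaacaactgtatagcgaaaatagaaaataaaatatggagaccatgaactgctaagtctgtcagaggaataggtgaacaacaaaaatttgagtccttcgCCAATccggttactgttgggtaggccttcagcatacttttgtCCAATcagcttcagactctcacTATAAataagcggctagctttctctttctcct
HIST1H4I (H4C9 in RefSeq, chr6:27139032-27139281, plus strand): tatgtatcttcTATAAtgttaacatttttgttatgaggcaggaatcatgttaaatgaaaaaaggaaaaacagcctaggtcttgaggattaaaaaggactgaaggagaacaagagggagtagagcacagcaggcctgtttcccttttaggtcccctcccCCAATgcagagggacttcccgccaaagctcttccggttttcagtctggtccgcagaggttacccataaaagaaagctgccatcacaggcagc

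Values are in FPKM, that is fragments scaled to annotated exon length and to library depth, as the authors deposited them. The FPKM steps of low genes gave back whole read numbers for 95.8% of 26519 genes in all 6 libraries, within 0.1 read, and for all members with reads, so reads and depths are given too. The FPKM steps put the depth to which the 6 libraries were scaled at 17500321 to 18193372 reads. Of the 7 markers of the line, RUNX1T1, RUNX1, KIT, CD34, MPO, CD33 and ANPEP, all were expressed, with mean FPKM from 11.1 for CD33 to 8106 for MPO. Of genes typical of other cell types, EPCAM was at 28.2 to 31.6 FPKM, and KRT8, COL1A1 and CD3E were at most 0.179 FPKM in any library. In each library, the deviation of each gene from its own mean over the 6 libraries, on the log scale, was rank-correlated with gene GC content. These correlations ran from -0.45 to 0.45 between libraries, with both signs in both groups.

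The members took few reads. Their 58 genes held 413 to 597 reads per library in controls and 417 to 500 in I3, and 2896 reads in all. Control 1 held the most, with 597 reads, against 476 and 413 in the other controls and 417, 500 and 493 in I3, so the groups overlapped. Summed FPKM was 50.6, 44.1 and 34.4 in controls and 36.3, 45.2 and 39.9 in I3 (43.0 ± 8.14 against 40.5 ± 4.50, SD, n = 3 each), a ratio of 0.94. In bulk RNA, fewer cells of a kind and less RNA per cell cannot be told apart. The ratio of reads, I3 over control at equal depth, was 0.934 with an exact Clopper-Pearson 95% interval of 0.868 to 1.005, and this interval, as all those given here, covers counting error only. The libraries of a group differed by more than counting error, with a chi-square per degree of freedom of 10.6 for the total.

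Reads were concentrated in a few members. HIST1H2BK, HIST1H2AC and HIST2H2AC together held 44.7% of all member reads, and the 10 best covered members held 72.5%. Over all 6 libraries, 8 members had 100 reads or more, 9 had 30 to 99, 19 had 10 to 29, 16 had 1 to 9 and 6 had none. All 6 libraries held a read for 25 members, and 12 members had at least 10 reads in each. A mean of at least 0.5 FPKM, the minimum for the test, was reached by 13 members, leaving 45 below it.

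**Figure D1:**
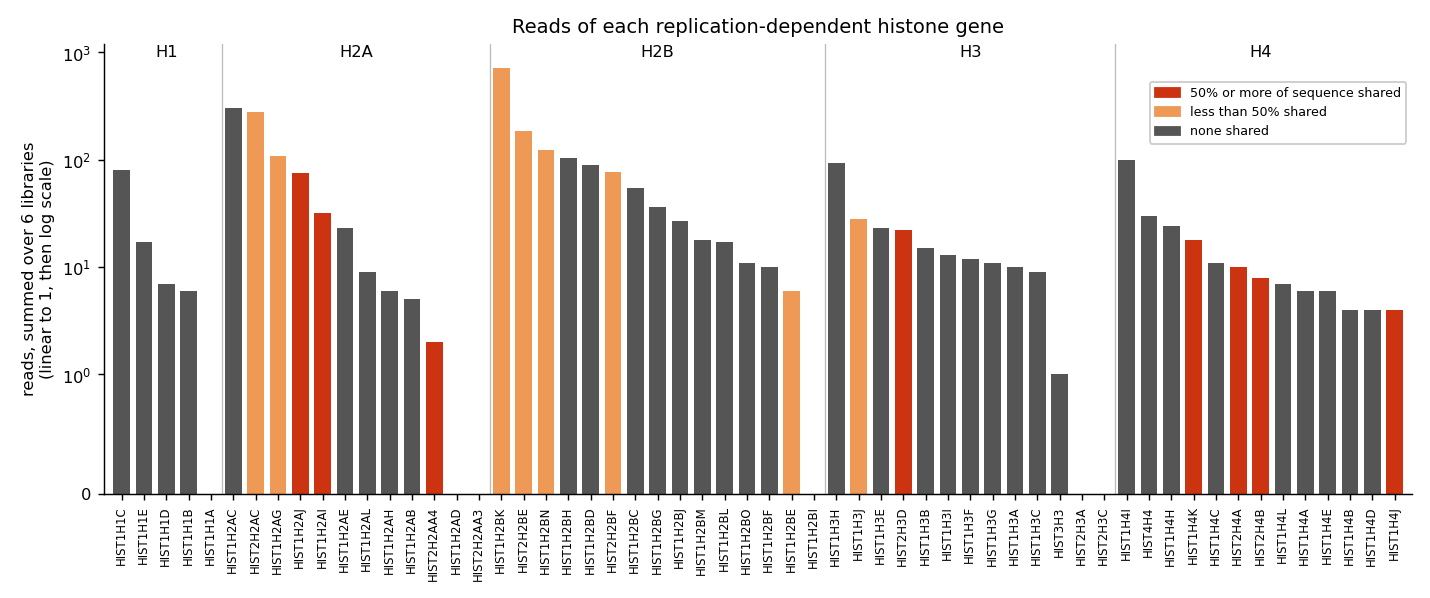
Reads of each of the 58 members, summed over 6 libraries (vertical axis linear from 0 to 1 and logarithmic above), ordered by histone type and then by reads; bar color gives the share of the transcript's 100-base windows that also occur in another gene. HIST1H2BK stands highest with 714 reads, H2A and H2B hold 7 of the 8 members with 100 reads or more, and 6 members are at 0.

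By histone type, H2B and H2A held most of the signal. The 15 H2B genes held 1475 reads (50.9% of member reads) and a mean summed level of 22.5 FPKM, and the 12 H2A genes 842 reads (29.1%) and 12.2 FPKM. H3 held 237 reads and 3.04 FPKM, H4 held 232 reads and 2.54 FPKM, and H1 held 110 reads and 1.56 FPKM. The lowest H2B library (15.5 FPKM) was just above the highest H2A library (15.1 FPKM), and both types were above H3, H4 and H1 in every library. H3 (1.27 to 3.57 FPKM), H4 (1.73 to 3.58) and H1 (0.962 to 2.30) overlapped. Type and depth went together: H2A and H2B held 7 of the 8 members with 100 reads or more, H4 held HIST1H4I at 100, and no H1 or H3 member reached that depth.

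The types were compared between groups as sums, with no test. H2B reads were 291, 243 and 195 in controls and 229, 269 and 248 in I3, a ratio of 1.01 (95% interval 0.908 to 1.12). H2A reads were 185, 134 and 113 against 105, 148 and 157, a ratio of 0.934 (0.814 to 1.07). In both types control 1 was the highest library and the groups overlapped; without control 1 the ratios were 1.12 for H2B and 1.09 for H2A. H1 reads were 14, 18 and 27 against 11, 15 and 25, with overlapping groups and a ratio of 0.851 (0.573 to 1.26), which was 1.05 without control 3 and 0.655 without I3 3.

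The smaller H3 and H4 sums were lower in FPKM in every I3 library than in every control. H3 reads were 53, 44 and 43 in controls and 37, 39 and 21 in I3, a ratio of 0.682 (0.521 to 0.890). All 3 I3 libraries were below all 3 controls in H3 reads and in H3 FPKM, where controls were at 3.55 ± 0.0162 and I3 at 2.53 ± 1.10 (SD, n = 3). I3 replicate 3 was the lowest, and without it the H3 ratio of reads was 0.807. These sums include HIST1H3J (1, 8 and 11 reads against 1, 5 and 2), whose reads may come from an overlapping H2A gene. Without HIST1H3J the groups would overlap in H3 reads and in H3 FPKM. H4 FPKM was 3.58, 2.87 and 2.64 in controls and 1.73, 1.85 and 2.57 in I3, and these values did not overlap between groups. H4 reads were 54, 37 and 35 against 35, 29 and 42, so on this scale the groups did overlap, and the ratio was 0.828 (0.633 to 1.08). The largest falls among H4 members were in HIST1H4K (0.787 to 0.295 FPKM, 18 reads in all) and HIST1H4I (0.890 to 0.559 FPKM). Without HIST1H4K, whose sequence is shared with HIST1H4J, the groups would overlap in H4 FPKM too. Means of HIST4H4, HIST1H4L and HIST2H4A were higher in I3. Among single tested genes, 4.64% were lower without overlap, and no such share was computed for sums of genes.

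**Figure D2:**
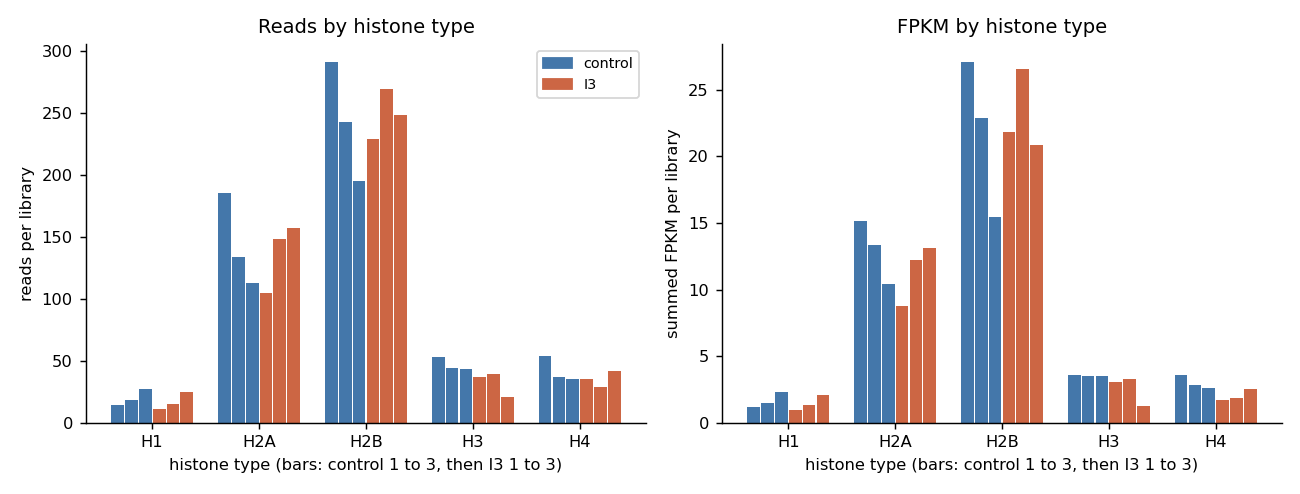
Reads (left) and summed FPKM (right) of the members of each histone type in each library, with 3 control bars followed by 3 I3 bars per type and both axes from 0. H2B and H2A are far above H3, H4 and H1 in every library, the H3 bars of I3 (37, 39 and 21 reads) are below those of controls (43 to 53), and the other types overlap in reads.

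No member passed the test. limma on log2(FPKM + 0.5), with Benjamini-Hochberg adjustment over 12960 genes, called 0 of the 13 tested members at an adjusted p under 0.05 with a log2 change of 0.58 or more in size. Over all 12960 genes the same rule called 0, a percent called of 0, and the smallest adjusted p of any gene was 0.309. At an unadjusted p under 0.05, 2 of 13 members were lower (HIST1H4K and HIST1H4I), against 2.85% of all genes lower, and 0 of 13 were higher, against 2.08% of all genes. The groups did not overlap for the same 2 members, against 4.64% of all genes lower, and for none in the higher direction, against 5.06%. HIST1H4I was not at an unadjusted p under 0.05 when control 1, control 2, control 3, I3 1 or I3 2 was left out. Nor was it with voom on the rebuilt reads. HIST1H4K was not at that p without control 1, control 2, I3 1 or I3 2. Without control 3 and with voom HIST1H4K was not tested, since it fell below the FPKM minimum and the minimum mean of 10 reads. Without control 1 a different member, HIST1H2AI, was at an unadjusted p of 0.00436 in limma, with a higher level in I3. The log2 fold changes (I3 minus control) were above 0 in 5 and below 0 in 8 of the 13, with a median of -0.16 against 0.01 over all genes tested; over all 52 members with reads, tested with no minimum, the median was -0.04. The standard errors of the members were 0.17 to 0.45, above the median of 0.10 over all genes, and 1 of 13 members was past 0.58 in size against 2.77% of all genes.

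**Figure D3:**
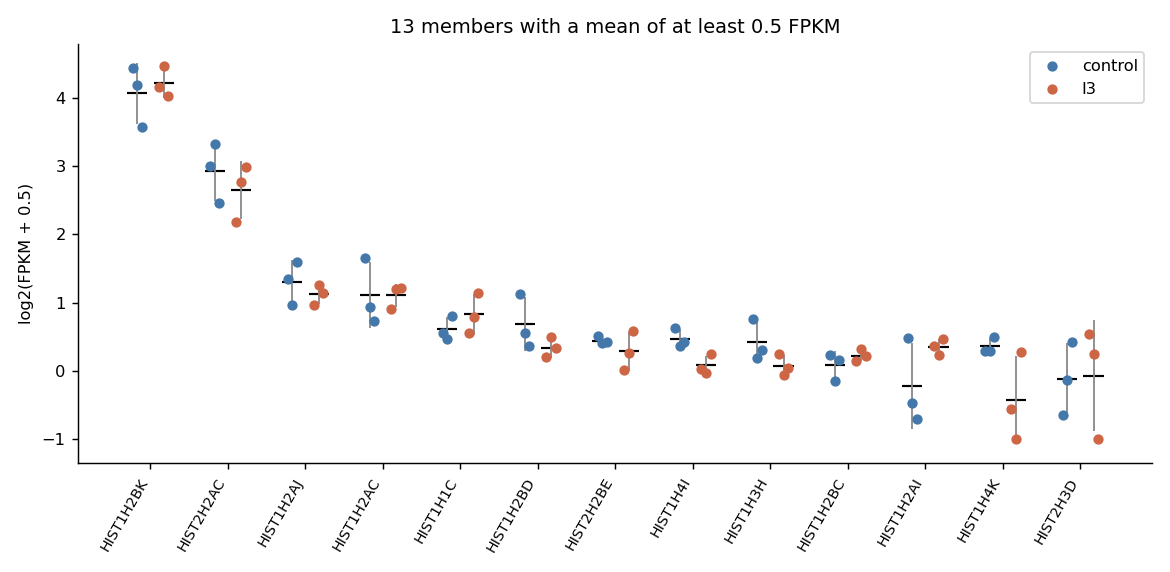
log2(FPKM + 0.5) of the 13 tested members in each library, ordered by mean FPKM; points are libraries, horizontal bars group means and vertical lines 1 SD (n = 3 per group). HIST1H2BK and HIST2H2AC lie above the rest, and only HIST1H4I and HIST1H4K have I3 points all below the control points.

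Of the H1 genes, which encode the linker histone, HIST1H1C led with a mean of 1.17 FPKM. Its reads were 11, 10 and 14 in controls and 11, 14 and 20 in I3. The 2 groups shared values and I3 3 was the highest; FPKM was 1.03 ± 0.193 against 1.30 ± 0.381, with a log2 fold change of 0.22 ± 0.19 (SE) and an adjusted p of 0.998 in limma, and of 0.06 without I3 3. HIST1H1E had 1, 7 and 6 reads in controls and 0, 1 and 2 in I3, so the groups overlapped and the ratio of 0.211 had an interval of 0.0389 to 0.756. HIST1H1D had 1, 0 and 6 reads in controls and was listed at 0 in all I3 libraries, and HIST1H1B had 6 reads in all. HIST1H1A was listed at 0 in every library, where 3 reads, the limit that a count of 0 allows, would be 0.255 to 0.265 FPKM.

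Among the H2A genes, HIST2H2AC and HIST1H2AC held most reads. HIST2H2AC (chr1:149886975-149887364, plus strand, a coding-only model of 390 bases) had 52, 66 and 34 reads in controls and 28, 44 and 53 in I3. Control 2 was the highest and I3 1 the lowest library, and the groups overlapped; FPKM was 7.35 ± 2.27 against 5.95 ± 1.75, with a log2 fold change of -0.28 ± 0.27 (SE; exact permutation p = 0.4, two-sided). The log2 fold change was -0.04 without I3 1, -0.08 without control 2, -0.52 without control 3 and -0.45 without I3 3. Of its 100-base windows, 17.2% also occur in HIST2H2AA3 and HIST2H2AA4. HIST1H2AC, whose annotated exons include a downstream exon and AATAAA beyond its stem-loop, had 78, 42 and 34 reads in controls and 41, 53 and 55 in I3. Control 1 alone was above the I3 range, and FPKM was 1.74 ± 0.794 against 1.66 ± 0.243. Its log2 fold change was -0.01 with all libraries and 0.27 without control 1.

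The other H2A genes were at lower depth. HIST1H2AG, the member with its own stem-loop letters, had 21, 10 and 18 reads in controls and 13, 24 and 23 in I3, with overlapping groups and a ratio of 1.21 (0.813 to 1.80). HIST1H2AJ had 14, 10 and 17 reads against 10, 13 and 12, at a mean of 1.84 FPKM, and its groups overlapped. HIST1H2AI had 8, 2 and 1 reads against 7, 6 and 8, with a log2 fold change of 0.58 ± 0.32 (SE) and an unadjusted p of 0.111 in limma. Without control 1 this was 0.93 (adjusted p = 0.39 in limma) and without control 3 it was 0.34. These 2 genes share sequence, with 80.9% of the windows of HIST1H2AJ and 57.7% of those of HIST1H2AI found in the other, so how their reads were split is uncertain. HIST1H2AE, HIST1H2AL, HIST1H2AH, HIST1H2AB and HIST2H2AA4 had 23, 9, 6, 5 and 2 reads in all.

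Of the H2B genes, HIST1H2BK had the highest level of all members. It lies at chr6:27146418-27146798 on the minus strand, where GENCODE 29 gives a single coding-only exon of 381 bases, while the RefSeq gene spans 8566 bases. Its reads were 142, 121 and 76 in controls and 118, 147 and 110 in I3, so control 3 was the lowest, I3 2 the highest, and the groups overlapped. FPKM was 16.8 ± 4.94 against 18.3 ± 3.02, with a log2 fold change of 0.15 ± 0.22 (SE) and an exact permutation p of 0.7; without control 3 the log2 fold change was -0.09. At a mean of 17.5 FPKM it ranked above 91.9% of all genes, and it held 24.7% of member reads and 42.0% of member FPKM. In 2 annotated genes named H2BFS, 28.4% of the 100-base windows of HIST1H2BK also occur. Only 1 of the 2 was among the gene rows, listed at 0 in every library, so the level of the other is not known. Of the 50-base windows of HIST1H2BK, 74.1% also occur in another gene. Without HIST1H2BK the summed FPKM of the members had a ratio of 0.844.

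HIST2H2BE, whose annotated mRNA runs 1801 bases past the stop codon, had 36, 32 and 32 reads in controls and 20, 27 and 40 in I3. I3 3 was the highest library of the 6 and I3 1 the lowest, and FPKM was 0.861 ± 0.0596 against 0.735 ± 0.248. HIST1H2BD, with a spliced annotated form, had 26, 15 and 12 reads against 10, 14 and 12, with control 1 above the other 5 libraries and a log2 fold change of -0.34 ± 0.22 (SE; exact permutation p = 0.2), or -0.12 without control 1. HIST1H2BH had 14, 22 and 23 reads against 16, 11 and 19, and its mean of 0.478 FPKM was just below the minimum. HIST1H2BN had 31, 12 and 17 reads against 21, 18 and 24, spread over an annotated exon length of 5477 bases that overlaps HIST1H2AL on its own strand. HIST2H2BF had 16, 12 and 16 against 7, 12 and 14, and HIST1H2BC had 10, 6 and 9 against 9, 11 and 10. In all 6 genes the groups shared values or crossed.

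A few less covered H2B genes did separate or clustered by library. HIST1H2BJ had 3, 3 and 3 reads in controls and 4, 7 and 7 in I3, and HIST1H2BF 1, 0 and 1 against 2, 3 and 3, so in both the lowest I3 library was above the highest control. Their ratios were 1.97 (0.840 to 4.97) and 3.94 (0.786 to 38.1), with intervals that include 1. HIST1H2BG had 1, 7 and 3 reads against 12, 11 and 2, with overlap and a ratio of 2.24 (1.06 to 5.04). HIST1H2BO had all of its 11 reads in control 1 (7) and I3 1 (4). HIST1H2BM had 18 reads, HIST1H2BL 17 and HIST1H2BE 6, and HIST1H2BI was listed at 0 throughout, where 3 reads would be 0.433 to 0.450 FPKM.

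Among the H3 genes HIST1H3H was the only one with more than 30 reads. It had 26, 14 and 16 reads in controls and 15, 10 and 12 in I3, with control 1 the highest and a small overlap between control 2 and I3 1. FPKM was 0.855 ± 0.295 against 0.556 ± 0.115, a log2 fold change of -0.34 ± 0.21 (SE) with an exact permutation p of 0.2, or -0.17 without control 1. HIST1H3J had 1, 8 and 11 reads against 1, 5 and 2, a ratio of 0.394 (0.150 to 0.933), but control 1 was as low as the lowest I3 library. Its model overlaps HIST1H2AM, an H2A gene not analysed here, on the same strand, and 36.5% of its 100-base windows occur there. Which gene its reads came from is therefore uncertain. HIST2H3D, on the edge of the minimum at 0.504 FPKM, had 1, 3 and 6 reads against 7, 5 and 0 and a log2 fold change of 0.05 ± 0.45 (SE). HIST1H3F had 4, 1 and 4 reads against 2, 1 and 0. The remaining H3 genes with reads, HIST1H3E, HIST1H3B, HIST1H3I, HIST1H3G, HIST1H3A, HIST1H3C and HIST3H3, had 23, 15, 13, 11, 10, 9 and 1, and the groups overlapped in each.

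Of the H4 genes, HIST1H4I (chr6:27138588-27139881, plus strand) was the best covered. Its reads were 24, 18 and 19 in controls and 12, 11 and 16 in I3, so every I3 library was below every control. FPKM was 0.890 ± 0.141 against 0.559 ± 0.106, a log2 fold change of -0.39 ± 0.17 (SE) with an unadjusted p of 0.0498 and an adjusted p of 0.998 in limma. The exact permutation p was 0.1, the smallest that 3 against 3 allows, and the ratio of reads was 0.629 (0.410 to 0.956). Its log2 fold change without any 1 library stayed between -0.47 and -0.31.

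HIST1H4K had 4, 4 and 5 reads in controls and 1, 0 and 4 in I3. Control FPKM was 0.720 or more and I3 FPKM 0.705 or less, although controls 1 and 2 and I3 3 each had 4 reads, since FPKM also divides by depth. Its log2 fold change was -0.79 ± 0.33 (SE) with an unadjusted p of 0.0455 and an adjusted p of 0.998 in limma, and the ratio of reads was 0.379 (0.106 to 1.13). The log2 fold change was -0.51 without I3 2 and -1.14 without I3 3, and without control 3 the gene fell below the minimum. All of its 100-base windows occur in HIST1H4J, which had 1, 0 and 2 reads against 1, 0 and 0.

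HIST4H4, the H4 gene that stands outside the clusters on chromosome 12, separated the groups in the other direction. Its reads were 3, 2 and 1 in controls and 10, 5 and 9 in I3, with every I3 library above every control. FPKM was 0.0439 ± 0.0219 against 0.173 ± 0.0568, below the minimum for the test, and the ratio of reads was 3.94 (1.57 to 11.8; exact permutation p = 0.1). HIST1H4H had 8, 4 and 2 reads against 4, 1 and 5. HIST1H4C had 5, 2 and 0 reads against 2, 1 and 1, HIST2H4A had 10 in all and HIST2H4B 8. HIST1H4L, HIST1H4A, HIST1H4E, HIST1H4B and HIST1H4D had 7, 6, 6, 4 and 4 reads in all, and the groups overlapped in each.

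With no minimum FPKM, all 52 members with reads entered the limma fit over 26609 genes. At an unadjusted p under 0.05, 3 of 52 were higher in I3 (HIST4H4, HIST1H2BF and HIST1H2BJ, at p of 0.0111, 0.0125 and 0.0369), against 2.05% of all genes, and 1 was lower (HIST1H4I, p of 0.0473), against 1.85%. The groups did not overlap for 3 higher and 2 lower members, against 3.92% and 3.63% of all genes. The log2 fold changes on the FPKM + 0.5 scale were 0.30 for HIST4H4, 0.23 for HIST1H2BF and 0.32 for HIST1H2BJ, smaller than their ratios of reads because the added 0.5 exceeds their levels. The adjusted p in limma was 0.898 for each of the 4. For the 14 members with 50 to below 1000 reads, chi-square per degree of freedom within groups had a median of 1.53 and ran from 0.323 to 6.55, beside a median of 1.94 over the 5110 genes in this range.

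**Figure D4:**
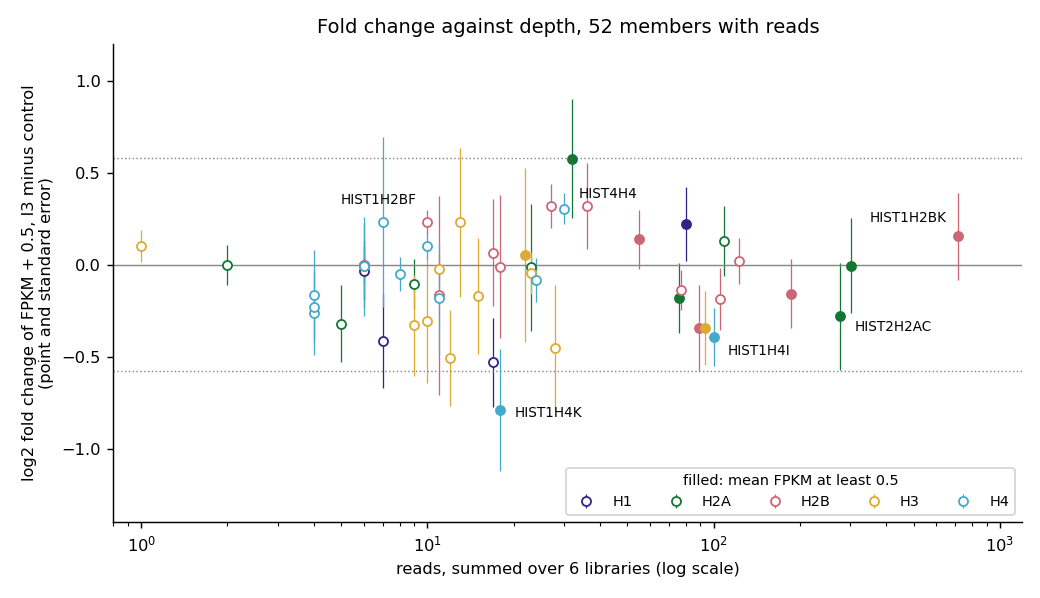
log2 fold change of FPKM + 0.5 (I3 minus control) with its standard error for the 52 members with reads, from the limma fit with no minimum, against reads summed over 6 libraries on a log axis; color gives the histone type, filled points have a mean of at least 0.5 FPKM and dotted lines mark 0.58. HIST1H2BK with 714 reads and HIST1H4I with 100 lie at 0.15 and -0.39, HIST1H4K lies outside the dotted lines, and other points between them have error bars that often cross 0.

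Reads and levels were also set against the annotation of each member. The 23 members with 150 bases or more after the stop codon held 49.4% of member reads and 19.0% of member FPKM, and the 35 with less held 50.6% of reads and 81.0% of FPKM. The former had a median exon length of 1876 bases and the latter of 411, so a longer model collects reads over more bases and divides them by a larger length. Between groups the ratio of reads was 0.931 (0.838 to 1.03) in the first class and 0.937 (0.845 to 1.04) in the second. Members with a stem-loop in the model had a ratio of 0.933 and those without of 0.935. The HIST1 cluster held 46 members and 78.8% of member reads with a ratio of 0.944, and HIST2 held 10 members and 20.1% with a ratio of 0.837 (0.709 to 0.989).

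Near-identical copies limited what could be said of single members. In 12 of the 58, at least 50% of the 100-base windows also occur in another gene, and 38 share none. HIST2H2AA3, HIST2H3A and HIST2H3C, all of whose windows occur in other genes, and HIST1H2AD, with 97.6% in an overlapping gene, were listed at 0 in every library, and HIST2H2AA4 had 2 reads. For these genes a value of 0 does not bound the level, since the sources used here do not say how reads that match several genes were counted. HIST1H1A and HIST1H2BI, the other 2 members at 0, share no 100-base window with another gene. The 12 members with at least 50% shared held 172 reads, 5.94% of the total, with a ratio of 0.962, and the 38 with none shared held 1203 with a ratio of 0.889 (0.793 to 0.997).

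In this poly(A)-selected RNA, which samples mainly tailed mRNA, the genes listed as replication-independent histone genes were above the members in sum. In each library the summed FPKM of 12 such genes was 10.7 to 15.6 times that of all 58 members. H2AFX, which encodes H2A.X, was at 135 ± 4.42 FPKM in controls and 124 ± 8.14 in I3, and H3F3A and H3F3B, both for H3.3, had means of 103 and 89.2 FPKM. H2AFZ, for H2A.Z, had a mean of 86.9 FPKM. Of the 12 genes, 6 were below the mean of HIST1H2BK, among them H3F3C at 0.0710 and H2AFY2 at 0.00477 FPKM. Of the 10 tested, none was called, against the 0 called over all genes. At an unadjusted p under 0.05 in limma, 1 of 10 was lower (H1FX), against 2.85% of all genes. None was higher, against 2.08%. H1FX, a linker histone variant gene, was at 15.3, 17.6 and 16.3 FPKM in controls and 12.6, 13.5 and 9.41 in I3. Its I3 libraries were all below its controls, as for 4.64% of all genes tested. H1FX had a log2 fold change of -0.46 ± 0.13 (SE), an unadjusted p of 0.00868 and an adjusted p of 0.812 in limma.

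None of the genes listed for transcription of the histone genes, processing of their mRNA or handling of histones passed the test. Of the 22 genes for 3′ end formation and decay, all were tested, 0 were called and 0 had an unadjusted p under 0.05; their log2 fold changes were -0.26 to 0.11. SLBP, the stem-loop binding protein, was at the low end with 55.1, 49.9 and 47.8 FPKM in controls and 50.4, 40.0 and 37.7 in I3, overlapping at I3 1, with an unadjusted p of 0.0538 and an adjusted p of 0.998 in limma. The unadjusted p of SLBP ran from 0.00282 without I3 1, where the log2 fold change was -0.38, to 0.169 without I3 3, and its adjusted p from 0.40 to 1.0 over the alternatives. The 12 genes of histone gene transcription also gave 0 calls and 0 at an unadjusted p under 0.05, and NPAT, the coactivator of the histone locus, was at 4.82 ± 0.773 against 5.01 ± 0.373 FPKM. Of 21 histone chaperones, 20 were tested (IPO4, with 3 reads in all, was not) with 0 calls and log2 fold changes of -0.13 to 0.12.

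Genes of S phase, when these members are normally expressed, were close between groups. All 24 were tested, with 0 called and a median log2 fold change of 0.01, the same as over all genes to that precision. PCNA, the replication clamp, was at 161 ± 2.53 FPKM in controls and 164 ± 3.66 in I3. limma gave an unadjusted p under 0.05 for 2 of the 24, both lower, against 2.85% of all genes lower and 2.08% higher. CDT1, which loads the MCM helicase, was at 51.9 ± 5.90 against 42.2 ± 3.35 FPKM (log2 fold change -0.29, unadjusted p = 0.0186, adjusted p = 0.868 in limma), and its groups overlapped. E2F1, a factor that activates S phase genes, was at 21.5 ± 2.04 against 18.4 ± 1.56 FPKM (log2 fold change -0.22, unadjusted p = 0.0435, adjusted p = 0.998 in limma), and its groups did not overlap, as for 4.64% of all genes lower. Without control 2, control 3, I3 1 or I3 3 neither gene was at an unadjusted p under 0.05. Whether either bears on the H3 or H4 sums was not tested.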

How the data were processed

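mRNA was sequenced from 6 Kasumi-1 samples, 3 control and 3 given I3. The labels' processing notes name Trimmomatic, HISAT2, Cufflinks, HTSeq and hg38, without versions or settings, and the sources used here do not state how reads that match several genes were handled. The authors deposited FPKM per gene, one value per library, and these are the only values used; value columns not used numbered 0. Whole reads were rebuilt as FPKM times GENCODE 29 exon length times depth. The test of the design was limma (3.58.1, R 4.3.3) with a trended prior and Benjamini-Hochberg adjustment on log2(FPKM + 0.5), for genes with a mean of at least 0.5 FPKM, with all 6 libraries and no covariate; it was tested on simulated data. Single members were compared by an exact two-sided permutation test of mean FPKM. Intervals of read ratios are exact Clopper-Pearson intervals at 95%, scaled by depth. Python 3.11.15, pandas 2.3.3, scipy 1.17.1 and matplotlib 3.10.9 were used. Shared sequence is the share of a gene's 100-base transcript windows found in another gene's transcripts. Members named are the 25 with the highest mean FPKM, the 3 highest of each type, tested members with an unadjusted p under 0.05 or groups without overlap, near-identical copies listed at 0, members with a stem-loop and a spliced or long transcript, and listed genes with an unadjusted p under 0.05; other members are given by reads. Members and gene lists were chosen with earlier results of these data known. Alternatives were another pseudocount, minimum or scaling, GC correction, no trend, a replicate block, voom on rebuilt reads and each library left out. Poly(A) selection keeps tailed RNA, so histone mRNA that ends in a stem-loop may be sampled less than its amount in the cell. Of the marker genes of other cell types, 1 is not reported here.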

Additional observations from a re-analysis of the deposited data

How the results depend on the processing

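In all 16 alternatives of the fit, the number of members called stayed at 0 and so did the number of listed genes called, and the smallest adjusted p of a member in any of them was 0.39. The number of members at an unadjusted p under 0.05, 2 in the reported fit, was 0 when 0.1 was added before the logarithm. It was also 0 when only genes averaging 1 FPKM or more were tested, but that minimum removed both HIST1H4I and HIST1H4K. With voom on rebuilt reads it was 0, with HIST1H4I tested and HIST1H4K not. A fit without a gene cannot show whether its result held. The number was 1 with GC correction (HIST1H4I), 4 with no minimum FPKM, of which HIST1H4I was 1, and 0 to 2 without any 1 library. The replicate block gave 1. Deviations of same-numbered samples had correlations of 0.06, 0.15 and -0.02, and those of other pairs ran from -0.17 to 0.10. With so few samples these values cannot show whether the numbers pair the samples, and no label says so. The median log2 fold change of -0.16 moved to -0.005 over the 5 members averaging 1 FPKM or more and was -0.19 to -0.034 without any 1 library. The ratio of summed FPKM was 0.855 to 1.03 without any 1 library. HIST1H2AC changed sign with a pseudocount of 0.1 (0.007), TPM (0.014) and voom (0.01), HIST2H3D with a pseudocount of 0.1 (-0.15) and TPM (-0.076), and NPAT with GC correction (-0.002). Without any 1 library, the log2 fold change was -0.19 to 0.27 for HIST1H2AC, -0.094 to 0.34 for HIST1H2BK, -0.21 to 0.52 for HIST2H3D and -0.026 to 0.17 for NPAT. Leaving a library out of the sums by type was added after seeing the data: the ratio of reads was 0.609 to 0.807 for H3 and 0.755 to 0.966 for H4. Counting windows of 50 bases instead of 100 brought the members with at least 50% shared from 12 to 13, and those sharing none from 38 to 24. The added member was HIST1H2BK, with 74.1% of its 50-base windows shared and 24.7% of all member reads. The small share of reads in such members at 100 bases therefore depends on the window. Depth limits single members, since 45 of 58 were below the minimum for the test.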

Other observations

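Histone-named genes outside the members were also in the table. HIST2H2BC, a transcribed pseudogene of the HIST2 cluster, had 64, 57 and 55 reads in controls and 67, 77 and 75 in I3, so every I3 library was above every control, as were 5.06% of all tested genes. Its mean was 0.575 FPKM, with a log2 fold change of 0.15, an unadjusted p of 0.368 and an adjusted p of 0.998 in limma. HIST2H2BD, another transcribed pseudogene, had 29, 7 and 15 reads against 29, 51 and 22, and the groups shared a value of 29. HIST2H2BA had 8 reads in all, and HIST2H3DP1, HIST1H3PS1, HIST1H2APS4 and HIST1H1PS1 had 3, 2, 1 and 0.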
